A study of Mus musculus with 21 samples.

Results

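The genes of mouse chromosome 15 that wild type T cells express were followed along the chromosome in RNA-seq libraries of Tet2/3-deficient T cells before and after transfer into recipient mice. Members were the chromosome 15 genes (GENCODE M21, build GRCm38) with a mean of at least 5 CPM (counts per 1e6 reads assigned to genes) over the 5 wild type libraries. The rule kept 378 genes, 369 of them protein coding, of 1846 chromosome 15 genes and 55487 genes in the files. Together with 8644 genes of the other 18 autosomes that met the same minimum they made up 9022 autosomal genes. The rule set 4 transferred libraries, the 1st transplantation replicate 3 and the 2nd transplantation replicates 5, 6 and 7, against the other 7 transferred libraries. These 4 libraries were chosen on the values of chromosome 15 itself, so their difference from the other 7 is given as a description, with no test.

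RNA was sequenced from T cells of mouse spleen in 21 libraries. WT (n = 5) was wild type, all labelled male, and DKO (n = 5, replicate 2 labelled female) carried Tet2-/- in all cells and Tet3flx/flx with CD4cre, which removes Tet3 in T cells from the stage at which CD4 is first made. Both were sorted as CD4+CD25- TCRb+ cells negative for the aGalCerCd1d tetramer, and DKO replicates 4 and 5 are labelled young. TX1 (1st transplantation, n = 4) and TX2 (2nd transplantation, n = 7) were CD45.2+ DKO cells recovered from CD45.1+ recipients after 1 or 2 rounds of transfer, sorted as CD45.2+, TCRb+ cells. All DKO, TX1 and TX2 libraries therefore share the loss of Tet2 and Tet3, and no age is known beyond the label young.

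Mouse chromosome 15 carries Myc, which encodes a transcription factor that drives cell growth and protein synthesis, and its neighbour Pvt1, a long noncoding RNA. An extra copy of chromosome 15 is a recurrent finding in mouse T cell lymphomas. When the copy number of a chromosome changes, the RNA of most of its genes tends to shift in the same direction. DNA copy number was not measured in the files used here, and the values below are RNA levels.

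The 4 libraries shared a T cell receptor. Each T cell carries a rearranged receptor alpha and beta chain, and its junction sequence (CDR3) marks the clone that it descends from. In the deposited clonotype tables the most abundant receptor of the 4 libraries was TRAV8N-2 joined to TRAJ18 for the alpha chain and TRBV13-2 joined to TRBJ2-3 for the beta chain. The receptor of TX2 replicates 1 to 4 was a different one. Their junctions are shown because they say which libraries share a source, with the bases between the end of the V and the start of the J segment in capitals and all others in lower case, 5′ to 3′. The alpha and beta receptor genes lie on chromosomes 14 and 6.
Alpha chain, TX1 replicate 3 and TX2 replicates 5 to 7: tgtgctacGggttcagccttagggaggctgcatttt
Beta chain, TX1 replicate 3 and TX2 replicates 5 to 7: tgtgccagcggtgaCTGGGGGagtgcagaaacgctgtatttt
Alpha chain, TX2 replicates 1 to 4: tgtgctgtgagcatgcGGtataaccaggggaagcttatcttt
Beta chain, TX2 replicates 1 to 4: tgtgccagcagtgatacagaagtcttcttt

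The alpha chain of the first pair took 84.1% of the alpha reads in TX1 replicate 3 (2215 of 2633 reads, exact 95% binomial interval 82.7 to 85.5%). It took 85.6, 83.2 and 88.1% in TX2 replicates 5, 6 and 7. The beta chain took 89.3% in TX1 replicate 3 and 89.6, 90.6 and 90.2% in TX2 replicates 5, 6 and 7. The second most abundant chains, TRAV6-5 with TRAJ50 and TRBV4 with TRBJ2-5, were also the same in the 4. Among the other libraries the alpha chain was found in 3 of 17, at 0.0157% or less, and the beta chain in 1 of 14, at 0.0160%. TX1 replicates 1, 2 and 4 each had a dominant receptor of their own. The receptor of TX2 replicates 1 to 4 had its highest share elsewhere in TX1 replicate 4. There it took 6 of 5651 alpha reads (0.106%) and 11 of 3763 beta reads (0.292%). The 11 transferred libraries therefore held 5 dominant receptors, and the 4 libraries are not samples of 4 independent clones. Whether their second chains came from the same cells or from another clone cannot be told from these bulk samples. Below, 1 clone means libraries that share a dominant receptor.

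The libraries held 26918548 to 30730877 reads assigned to genes. The 4 libraries are exactly the transferred libraries labelled female, with Xist at 236 to 494 CPM, so that sex label, clone and the set chosen by the rule cannot be told apart. TX1 replicate 2 is labelled male but had Ddx3y at 0.213 CPM and Xist at 0.106 CPM, against 79.1 CPM or more of Ddx3y in the other male-labelled transferred libraries. Tet3 lay at 168.6 to 217 CPM in WT and at 57.7 to 105.7 CPM in DKO, TX1 and TX2. Tet2 lay at 34.8 to 54.5 CPM in WT and 40.0 to 53.5 CPM in DKO, and whether its reads fall outside the deleted part was not analysed here. Cd4 lay between 1111 and 1734 CPM in WT and DKO but at 1.44 to 28.0 CPM in the 4 libraries and at 0.130 to 1051 CPM in the other 7, while Cd3e, a chain of the receptor complex, was at 171.6 to 212 CPM in the 4. The sum over 6 T cell markers was 2017 to 2090 CPM in the 4 libraries and 2242 to 4642 CPM in the other 7. Red cell markers (3 genes) summed to 0.943 to 550.1 CPM in the 4 and 0.0709 to 8.90 CPM in the other 7, and B cell markers (4 genes) to 0.594 to 130.3 CPM and 0.248 to 60.7 CPM. Macrophage and neutrophil markers (6 genes) summed to 4.16 to 119.8 CPM and 3.42 to 34.5 CPM, and NK cell markers (3 genes) to 222 to 461 CPM and 70.3 to 322 CPM. CD8 markers (2 genes) were at 0.424 CPM or less in both sets. No marker was at 0 in all of the 4 libraries, and the part that these other cells had in the results was not tested. In these bulk samples a change in the mix of cells and a change in RNA per cell cannot be told apart.

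For each library the log2(CPM + 0.5) of a gene was set against its WT mean, and the median over all 9022 autosomal genes was subtracted. On this scale the median of the 378 members was 0.33 in TX1 replicate 3, 0.34 in TX2 replicate 5, 0.30 in TX2 replicate 6 and 0.47 in TX2 replicate 7. In the other transferred libraries it was 0.07, 0.10 and 0.02 in TX1 replicates 1, 2 and 4, and it ran from -0.04 to -0.01 in TX2 replicates 1 to 4. The 4 libraries averaged 0.36 ± 0.08 (SD, n = 4 libraries of 1 clone) and all lay above the highest of the other 7. Chromosome 15 held 5.79 to 6.47% of the assigned reads in the 4 libraries and 4.42 to 5.35% in the other 7, against 4.58 to 4.98% in WT and 4.85 to 5.01% in DKO. DKO libraries lay between -0.001 and 0.03 on the median scale, and DKO replicate 2, the female-labelled DKO library, was at 0.03. That library had no read of the receptor shared by the 4, of 4581 alpha reads, which allows a share of up to 0.0655% (3 reads of the total, counting error only). Its own most abundant chains took 77.9% of the alpha and 77.8% of the beta reads. In the other DKO libraries the most abundant alpha chain took 3.86 to 12.5%. In DKO replicate 2 the sex label and this dominant receptor cannot be told apart.

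**Figure D1:**
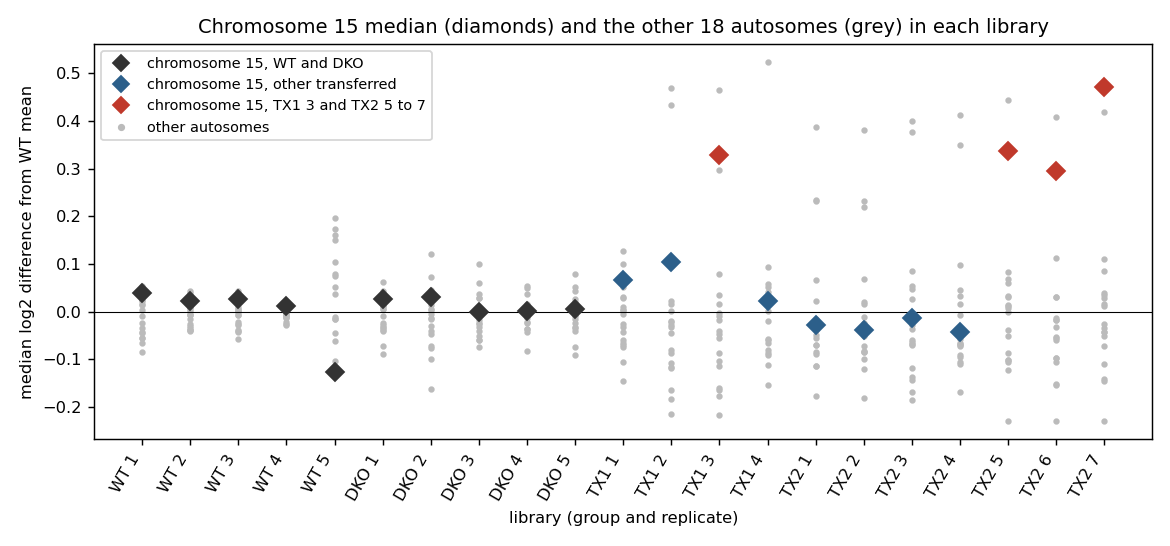
Median log2 difference from the WT mean (y axis) in each of the 21 libraries (x axis), with chromosome 15 as diamonds and the other 18 autosomes as grey points. The 4 red diamonds lie between 0.30 and 0.47, above the highest of the other transferred libraries at 0.10.

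Chromosome 15 ranked first among the 19 autosomes in TX2 replicate 7 and second, after chromosome 17, in the other 3 libraries. Chromosome 17 was the highest of the other 18 autosomes in all 4, at 0.41 to 0.46, and the lowest was chromosome 6, at -0.23 to -0.22. Chromosome 17 was also at 0.47 in TX1 replicate 2 and 0.52 in TX1 replicate 4, where chromosome 15 was at 0.10 and 0.02. A raised chromosome 17 was thus present with and without a raised chromosome 15. Chromosome 16 was at 0.30 in TX1 replicate 3 and at 0.08, 0.29 and 0.11 in TX2 replicates 5, 6 and 7. In the other 7 transferred libraries chromosome 16 ran from -0.06 to 0.09.

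The difference was spread over most members and was not carried by a few. Per gene, the mean of the 4 libraries minus the mean of the other 7 had a median of 0.40 on the log2 scale (quartiles 0.12 and 0.61), and 308 of 378 members (81.5%) were above 0. Over the other 18 autosomes the same difference had a median of 0.02, with 52.2% of 8644 genes above 0. Among these, chromosome 16 was shifted too, with a median of 0.19 and 218 of 299 genes (72.9%) above 0. Within TX2, replicates 5 to 7 minus replicates 1 to 4 gave a median of 0.44 with 302 members above 0. Within TX1, replicate 3 minus the other 3 gave 0.29 with 313 members (82.8%) above 0. There chromosome 16 was higher than chromosome 15, at 0.33 with 85.3% of its genes above 0. Both differences were above 0 in 266 members (70.4%), against 32.6% of the genes of the other autosomes and 61.2% of those of chromosome 16. Counting each dominant receptor once, the 4 libraries' clone minus the mean of the other 4 clones gave 0.32 for the chromosome median.

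**Figure D2:**
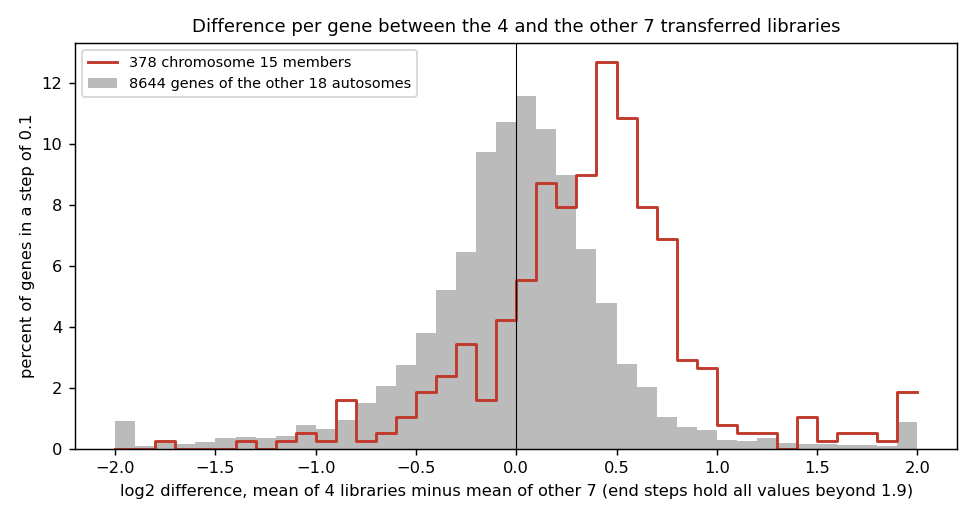
Percent of genes (y axis) in steps of 0.1 of the log2 difference between the mean of the 4 libraries and the mean of the other 7 (x axis), for the 378 members (red line) and 8644 genes of the other 18 autosomes (grey bars). The whole distribution of the members is displaced, with a median of 0.40 against 0.02.

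In 82 members (21.7%) all 4 libraries lay above all of the other 7, and in 4 members (1.06%) all 4 lay below. Among genes of the other autosomes the shares were 2.70% above and 3.51% below. The rule used this contrast, so nothing further is read from the counts. The 82 genes ran from Ttc33 (chr15:5185525-5218336) to Copz1 (chr15:103272714-103299868), all were protein coding, and their differences had a median of 0.57. They were divided between the strands as the members were, with 39 on the plus and 43 on the minus strand against 178 and 200 of all members. The longest stretch without such a gene held 34 members, between Nsmce2 and Eef1d. The 4 genes that lay below were Zfp623, H1f0, Fbxo4 and Rrm2b. H1f0, a linker histone of non-dividing cells, was at 27.4 to 53.8 CPM in the 4 libraries and at 65.7 to 179 CPM in the other 7. Fbxo4 encodes a subunit of a ubiquitin ligase, and Rrm2b a p53-induced subunit of ribonucleotide reductase.

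Along the chromosome the median difference was above 0 in every 10 Mb bin. In the first, middle and last 126 members in order its median was 0.35, 0.40 and 0.44, and 99, 105 and 104 members were above 0. In the 10 Mb bins with at least 20 members the median was 0.41 at 30 to 40 Mb (25 members), 0.44 at 50 to 60 Mb (28), 0.38 at 70 to 80 Mb (99), 0.43 at 80 to 90 Mb (78), 0.47 at 90 to 100 Mb (48) and 0.42 at 100 to 110 Mb (45). The other 5 bins held 6 to 19 members each and ran from 0.17 to 0.62. The bin at 60 to 70 Mb, which holds Myc, was among the lowest, at 0.20, with 9 of 13 members above 0 and none in which the sets did not overlap. Relative to WT both sets were below 0 in the bins at 0 to 10, 20 to 30 and 60 to 70 Mb. There the 4 libraries had medians of -0.32, -0.81 and -0.29, and the other 7 of -0.51, -0.78 and -0.39. In the bin at 0 to 10 Mb, TX2 replicate 5 lay below the mean of the other 7 (-0.13), and 11 of 19 members were above 0. The running median over 41 neighbouring members, each of the 4 libraries against the mean of the other 7, stayed above 0 in all 338 windows of every 1 of the 4. It ran from 0.15 to 0.57 in TX1 replicate 3, from 0.004 to 0.59 in TX2 replicate 5, from 0.23 to 0.45 in TX2 replicate 6 and from 0.25 to 0.72 in TX2 replicate 7. TX1 replicate 2, set against the remaining 6, reached 0.39 at its highest window, so the 2 sets overlapped in single windows. Neighbouring windows share most of their members and are not separate observations. The reference of TX2 replicates 1 to 4 held libraries with their own receptor, and that of the 4 libraries did not. The 2 sets of lines therefore do not have like references.

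**Figure D3:**
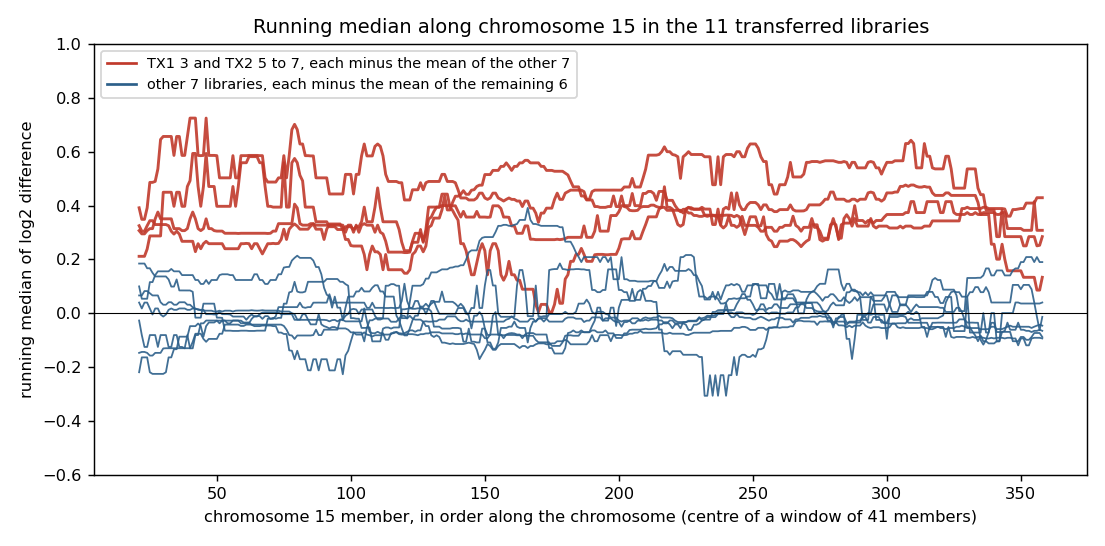
Running median of the log2 difference (y axis) over windows of 41 members in order along the chromosome (x axis), for each of the 11 transferred libraries. The red lines (each of the 4 libraries minus the mean of the other 7) stay above 0 in all 338 windows, while the blue lines (each of the other 7 minus the mean of the remaining 6) run between -0.31 and 0.39. The references of the red and blue lines are unlike, and neighbouring windows share most of their members.

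The difference was of similar size across WT levels. In 3 equal parts by WT level (5.04 to 28.5, 29.6 to 85.7 and 86.2 to 2907 CPM) the median difference was 0.42, 0.43 and 0.38, against 0.04, 0.04 and -0.03 for genes of the other autosomes in the same ranges. The 72 chromosome 15 genes just under the rule, with a WT mean of 1 to 5 CPM, had a median of 0.27 against 0.04 for 2133 such genes elsewhere. Relative to WT the median of these 72 genes was -0.02 to 0.12 in the 4 libraries (mean 0.02). In the other 7 it was -0.56 to 0.01 (mean -0.36). For these genes the 4 libraries were thus near the WT level, and most of the other 7 were below it. Next to the minimum, the members Pick1, Tbc1d31 and Gpt at 5.04, 5.07 and 5.38 CPM in WT had differences of 0.41, 1.15 and 0.28. The nearest genes outside it, Sgsm3, Asic1 and Amacr at 4.78, 4.67 and 4.52 CPM, had differences of 0.54, -0.21 and -0.21.

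Members that serve translation and the ribosome were above 0 in 29 of 29 cases, with a median difference of 0.55 and 16 genes in which the 4 libraries did not overlap the other 7. All members together had a median of 0.40 and the other autosomes 0.02. The shares without overlap and above, to be set beside this count and those of the lists that follow, were 21.7% of all members and 2.70% of genes of the other autosomes. Relative to WT the median of these 29 genes was 0.72, 0.89, 0.80 and 1.09 in the 4 libraries in the order given above, 0.20 to 0.47 in the other 7 and 0.07 to 0.19 in DKO. Pop1 (chr15:34495304-34530648) encodes a protein of the RNase P and RNase MRP complexes that process transfer and ribosomal RNA. It measured 58.2 CPM in TX1 replicate 3 and 94.2, 64.3 and 102 CPM in TX2 replicates 5, 6 and 7. In the other 7 it measured 19.6 to 44.3 CPM (median 27.4), and the sets did not overlap. Against these stood 8.44 ± 1.64 CPM in WT (SD, n = 5) and 20.3 ± 3.49 CPM in DKO (SD, n = 5).

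Bop1 (chr15:76452989-76477277), a ribosome assembly factor, measured 202 CPM in TX1 replicate 3 and 274, 218 and 299.8 CPM in TX2 replicates 5, 6 and 7. It lay at 113 to 185 CPM (median 148) in the other 7 and at 73.4 ± 12.7 CPM in WT (SD, n = 5), and again the sets did not overlap. Pabpc1 (chr15:36595661-36609668), the cytoplasmic poly(A) binding protein and the most abundant member in WT, measured 4897 CPM in TX1 replicate 3 and 5634, 4775 and 6161 CPM in TX2 replicates 5, 6 and 7. The other 7 lay at 3254 to 3954 CPM, below all 4. The initiation factor genes Eif4b, Eif3l, Eif3d and Eif3h had no overlap, with differences of unequal size. Eif4b was at 1033 to 1187 CPM against 593 to 865 CPM (difference 0.63), Eif3l at 487 to 661 CPM against 338 to 455 CPM (0.57), Eif3d at 125 to 140.2 CPM against 82.5 to 117 CPM (0.48), and Eif3h at 660.5 to 793 CPM against 481 to 659.6 CPM (0.33). Genes of large ribosomal subunit proteins showed smaller differences, with overlap between the sets: 0.48 for Rpl8, 0.38 for Rpl37, 0.16 for Rpl30 and 0.13 for Rpl3.

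**Figure D4:**
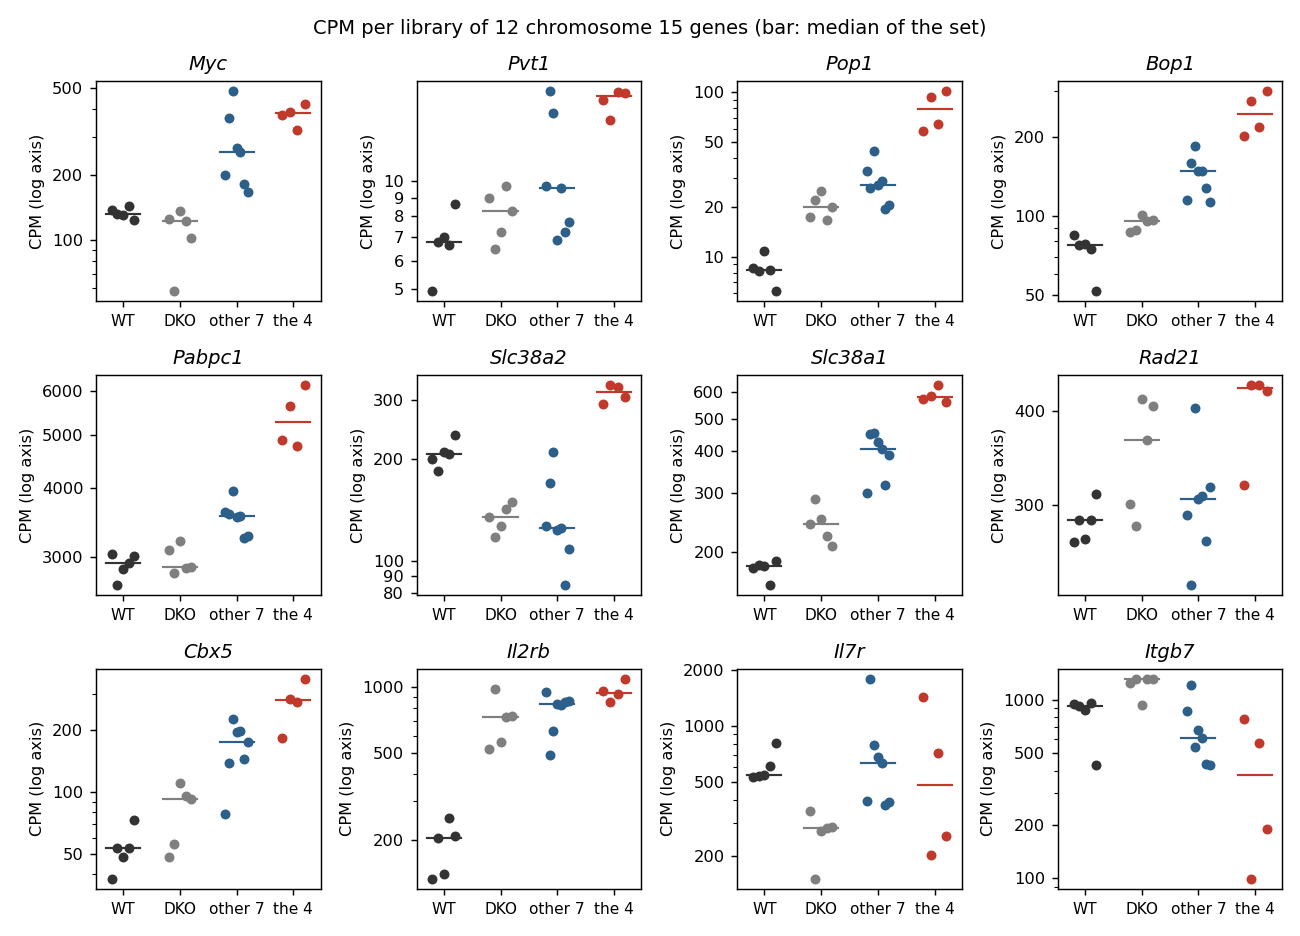
CPM on a log axis (y axis) of 12 chromosome 15 genes in each library of 4 sets (x axis): WT, DKO, the other 7 transferred libraries and the 4 libraries TX1 replicate 3 and TX2 replicates 5 to 7. Bars mark the median of a set. Pop1, Bop1, Pabpc1, Slc38a2 and Slc38a1 do not overlap between the last 2 sets, while Myc, Pvt1, Rad21, Cbx5, Il2rb, Il7r and Itgb7 do.

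Metabolic members were above 0 in 20 of 23 cases, with a median of 0.51 and 9 of 23 genes without overlap. The neutral amino acid transporter gene Slc38a2 (chr15:96687392-96699730) measured 292 CPM in TX1 replicate 3 and 333, 328 and 307 CPM in TX2 replicates 5, 6 and 7. The other 7 ran from 84.5 to 211 CPM with a median of 125, WT was at 208 ± 19.1 CPM (SD, n = 5) and DKO at 134 ± 12.5 CPM (SD, n = 5). So the 4 libraries were above WT, whereas DKO and 6 of the other 7 were below the WT mean. Its neighbour Slc38a1 (chr15:96571418-96642913), another transporter of the family, was at 561 to 630.4 CPM against 299 to 451 CPM and at 178 ± 10.9 CPM in WT (SD, n = 5). Cyc1 (cytochrome c1 of respiratory complex III) and Samm50 (sorting of outer membrane proteins into mitochondria) had differences of 0.76 and 0.51 without overlap. Adsl, an enzyme of purine synthesis, was at 154 to 226 CPM against 83.6 to 143 CPM. Sqle, which encodes squalene epoxidase of sterol synthesis, varied within the clone, at 10.4 CPM in TX1 replicate 3 and 37.5, 33.6 and 55.4 CPM in TX2 replicates 5, 6 and 7, so that it overlapped the other 7. Oxct1, an enzyme of ketone body use, had a difference of -0.20, Cox14 of -0.06 and Ndufa6 of -0.03.

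A list of Myc and selected neighbours gave 17 of 18 members above 0 and a median of 0.55, with 3 genes without overlap (Nsmce2, Washc5 and Rnf139). The list does not hold every gene near Myc, and its values differ from those of the 10 Mb bin around Myc, where the median of 13 members was 0.20 and 4 were below 0. These 4 were St3gal1 of the list and, outside it, Gm2682 (-0.76), Tmem71 (-0.87) and Sla (-0.0059). Relative to WT the median of the 18 list genes was -0.24, 0.08, -0.06 and 0.20 in the 4 libraries. It was -0.55 to 0.03 in the other 7 and -0.21 to 0.01 in DKO. For this list the 4 libraries thus lay near WT, and most of the other 7 lay below it. Myc (chr15:61985391-61990374) measured 377 CPM in TX1 replicate 3 and 389.9, 321 and 422 CPM in TX2 replicates 5, 6 and 7. The other 7 ran from 167 CPM in TX2 replicate 4 to 366 and 486 CPM in TX1 replicates 2 and 4, with a median of 254 CPM. The sets overlapped, and the highest Myc level of all 21 libraries was in TX1 replicate 4, whose chromosome 15 median was 0.02. WT stood at 133 ± 7.45 CPM and DKO at 109 ± 30.8 CPM (SD, n = 5 each), so all 11 transferred libraries were above every WT library for this gene. Pvt1 (chr15:62037986-62378096) was at 14.8 to 17.8 CPM in the 4 and 6.86 to 17.9 CPM in the other 7, with overlap. Nsmce2, a SUMO ligase of the Smc5/6 complex, was at 39.4 to 54.4 CPM against 24.8 to 34.5 CPM, and Washc5, a subunit of the WASH complex on endosomes, at 137 to 155 CPM against 75.8 to 107 CPM. The member of the group below 0 was St3gal1, a sialyltransferase, at -0.59.

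Members with a part in chromosome maintenance and cell division gave 18 of 19 above 0 and a median of 0.47, with 3 genes above without overlap (Nsmce2, Senp1 and Ncaph2) and 1 below (Rrm2b). Relative to WT the median of these genes was 0.88, 1.10, 1.09 and 1.38 in the 4 libraries, 0.36 to 0.80 in the other 7 and 0.10 to 0.65 in DKO. Espl1 (chr15:102296266-102324357), which encodes separase, the protease that cuts cohesin, measured 49.5 CPM in TX1 replicate 3 and 146, 124 and 154 CPM in TX2 replicates 5, 6 and 7. In the other 7 it measured 14.6 to 88.3 CPM, with overlap through TX1 replicate 3. Rad21, a cohesin subunit that separase cuts, was at 319 to 434 CPM against 235 to 404 CPM. Cbx5, which encodes the heterochromatin protein HP1 alpha, was at 184 to 357 CPM against 78.4 to 227 CPM, and Ncaph2, a condensin II subunit, at 169.7 to 200.2 CPM against 121 to 148 CPM. Tuba1a, Tuba1b and Tuba1c encode nearly identical alpha tubulins, so the division of reads between them is uncertain. Their differences were 0.47, 0.59 and 0.70.

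Chromatin and transcription regulators gave 24 of 28 above 0, with a median of 0.28 and 5 genes without overlap (Arid2, Taf2, Hsf1, Ccnt1 and Atf1). Relative to WT the median of these genes was -0.02 to 0.12 in the 4 libraries, -0.53 to -0.09 in the other 7 and -0.36 to -0.16 in DKO. The 4 libraries were thus near WT for this list, and the other 7 below it. Arid2, a subunit of the PBAF remodelling complex, was at 119.8 to 163 CPM against 68.3 to 99.4 CPM, and Taf2, a subunit of TFIID, at 89.8 to 119 CPM against 55.8 to 73.0 CPM. L3mbtl2, a subunit of a noncanonical Polycomb complex, had the largest difference of the group, 0.93, with overlap. Kmt2d, a histone H3K4 methyltransferase, and Ep300, a histone acetyltransferase, differed by 0.14 and 0.12. Rarg, a retinoic acid receptor, ran from 8.28 CPM in TX2 replicate 5 to 159.9 CPM in TX1 replicate 3 and had a difference of -1.37.

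T cell receptors, adaptors and signalling genes were above 0 in 16 of 26 cases, with a median of 0.27 and 1 gene, Apobec3, without overlap. Relative to WT the median of these genes was -0.50 to 0.06 in the 4 libraries, -0.42 to 0.20 in the other 7 and 0.02 to 0.37 in DKO. Apobec3, a cytidine deaminase that restricts retroviruses, was at 558 to 644 CPM against 379 to 486 CPM. Il2rb, the interleukin 2 receptor beta chain, was at 855 to 1095 CPM against 489 to 951 CPM. Il7r, the interleukin 7 receptor alpha chain, measured 1440.2 CPM in TX1 replicate 3 and 202, 711 and 256 CPM in TX2 replicates 5, 6 and 7. Its range of 202 to 1440.2 CPM inside the clone was almost as wide as that of the other 7, 375 to 1799.8 CPM, and the difference was -0.38. Itgb7, an integrin beta chain of gut homing, measured 778 CPM in TX1 replicate 3 and 99.4, 572 and 189.8 CPM in TX2 replicates 5, 6 and 7, against 430.0 to 1204 CPM in the other 7. Rac2, a small GTPase of blood cells and the most abundant gene of the group, was at 1542 to 2215 CPM against 1677 to 2395 CPM.

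The largest differences belonged to Pou6f1 (3.95), Ly6c2 (3.21), Trio (2.72), Acvrl1 (2.56) and Kctd17 (2.22). Pou6f1, a POU domain transcription factor, measured 17.2 CPM in TX1 replicate 3 and 159, 44.3 and 182 CPM in TX2 replicates 5, 6 and 7, against 1.66 to 30.7 CPM in the other 7. Ly6c2, a surface antigen whose reads may be shared with the close copy Ly6c1, measured 27.5 CPM in TX1 replicate 3 and 1561, 513 and 1847 CPM in TX2 replicates 5, 6 and 7. Its highest value among the other 7 was 610.3 CPM, in TX1 replicate 4, above TX1 replicate 3 and TX2 replicate 6. The lowest differences belonged to Ptk2 (-1.79), Rarg (-1.37), Zfp623 (-1.15), Itgb7 (-1.09) and Celsr1 (-1.01). Ptk2, which encodes focal adhesion kinase, was at 0.982 to 1.53 CPM in the 4 libraries. In TX1 replicates 1, 2 and 4 it was at 0.526, 0.567 and 0.130 CPM and in TX2 replicates 1 to 4 at 16.9 to 30.9 CPM, so the higher values were those of 1 other clone. Of these 10 genes only Zfp623 had no overlap between the sets.

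DKO against WT uses none of the transferred libraries, and it was tested with edgeR's quasi-likelihood test over 13700 genes, adjusted by the Benjamini-Hochberg method, with an adjusted p under 0.05 as the threshold. The labels do not say whether replicates came from separate animals, and p-values measure the spread between these samples. The rule did use the WT level, as a minimum, so genes low in WT and higher in DKO could not be members, and the count of members is a description. Of 378 members, 81 rose and 90 fell (171, 45.2%), which is 21.4% higher and 23.8% lower. Over all genes tested 43.4% were called, 22.7% higher and 20.7% lower. Over the 8643 tested genes of the other 18 autosomes with the same WT minimum 43.8% were called, 19.9% higher and 23.9% lower. The shares of members were close to those of the genes with the same minimum. The median log2 fold change was -0.01 in the members, -0.01 over all genes tested and -0.03 over the genes with the same minimum. The chromosome median, on a scale set against the mean of the 10 libraries, was -0.01 ± 0.04 in WT (-0.08 to 0.03) and -0.01 ± 0.02 in DKO (-0.03 to 0.03; SD, n = 5 each). The difference was -0.000136, smaller than the spread between replicates (2-sided exact permutation test, p = 1, adjusted over 19 autosomes 1; the smallest p that the design allows is 0.00794). For comparison, 5 of the 19 autosomes had an adjusted p under 0.05, with differences between -0.08 and 0.07.

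The 171 genes that changed did so in both directions. The counts of the lists below stand beside 19.9% higher and 23.9% lower for genes with the same WT minimum, and differences between the lists were not tested. Of the 19 genes of chromosome maintenance and cell division, 9 rose and 3 fell, with a median log2 fold change of 0.46. Espl1 measured 3.12, 5.49, 4.21, 8.90 and 5.75 CPM in WT replicates 1 to 5 and 19.2, 17.2, 67.5, 46.9 and 57.0 CPM in DKO replicates 1 to 5, with no overlap (log2 fold change 2.87 ± 0.42 (SE), adjusted p = 3.70e-04). Racgap1 (chr15:99620496-99651656), a GTPase activating protein of cytokinesis, measured 25.2, 29.3, 26.9, 43.8 and 28.0 CPM in WT and 173, 179, 241, 223 and 266 CPM in DKO (log2 fold change 2.78 ± 0.18 (SE), adjusted p = 6.18e-06). Every DKO library was above every WT library for both genes, and for Espl1 the DKO replicates 3, 4 and 5 stood above replicates 1 and 2. Gtse1, a mitotic microtubule protein outside the list, rose from 6.34 ± 1.81 to 28.6 ± 15.6 CPM (SD, n = 5). The 3 genes that fell were Rrm2b, Smug1 (a uracil DNA glycosylase) and Nipbl (the cohesin loader).

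T cell genes rose in 8 and fell in 7 of 26 cases, with a median of 0.30. Il2rb measured 133, 204, 139.7, 251 and 209 CPM in WT and 519.8, 986, 562, 734 and 741 CPM in DKO, without overlap (log2 fold change 1.89 ± 0.23 (SE), adjusted p = 1.45e-04). Lgals1, which encodes galectin-1, measured 100.4, 106, 98.2, 149.9 and 101 CPM in WT and 267, 888, 412, 581 and 581 CPM in DKO (log2 fold change 2.27 ± 0.29 (SE), adjusted p = 1.85e-04). DKO was higher in both, with the highest value of each in replicate 2, the library that was both female-labelled and dominated by a receptor of its own. Ly6c1 measured 136, 131, 112, 162 and 199.8 CPM in WT and 43.5, 1.41, 56.8, 20.6 and 15.9 CPM in DKO (log2 fold change -2.48 ± 0.64 (SE), adjusted p = 0.00923), without overlap, and its adjusted p was 0.0701 without the DKO libraries labelled young. Ptk2 fell as well (log2 fold change -2.34 ± 0.35 (SE), adjusted p = 4.31e-04), as did Il7r (log2 fold change -1.22 ± 0.20, adjusted p = 6.73e-04) and Grap2, an adaptor of receptor signalling (-1.59 ± 0.36, adjusted p = 0.00473).

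Of 28 chromatin and transcription regulators, 4 rose and 13 fell, with a median of -0.30. Tef, a PAR bZIP factor, fell from 36.8 ± 4.06 to 19.9 ± 3.92 CPM (SD, n = 5), and Tcf20, a transcriptional coregulator, from 239 ± 45.9 to 140.3 ± 31.1 CPM. Klf10, a zinc finger factor induced by TGF beta, rose from 19.5 ± 2.69 to 38.8 ± 6.45 CPM (log2 fold change 0.95 ± 0.14 (SE), adjusted p = 4.25e-04). Kmt2d and Ep300 were among the 13 that fell.

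Of 29 translation genes, 3 rose (Pop1, Eif3l and Bop1) and 1 fell (Rpl30), with a median of 0.11. Pop1 measured 8.58, 8.25, 10.8, 8.37 and 6.18 CPM in WT and 17.5, 22.03, 25.3, 16.7 and 20.01 CPM in DKO (log2 fold change 1.23 ± 0.17 (SE), adjusted p = 2.40e-04). All DKO libraries were above all WT libraries for this gene. Metabolic genes rose in 9 and fell in 3 of 23 cases (median 0.19). Slc38a2 fell (log2 fold change -0.67 ± 0.09 (SE), adjusted p = 2.80e-04) and Slc38a1 rose (log2 fold change 0.42 ± 0.11, adjusted p = 0.00922), and Ndufb9, a subunit of respiratory complex I, rose (log2 fold change 0.75 ± 0.16 (SE), adjusted p = 0.00279). Srebf2, the regulator of sterol synthesis, fell from 397 ± 35.1 to 267 ± 15.6 CPM.

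Around Myc, 4 of 18 genes rose and 6 fell, with a median of -0.19. Myc itself did not pass the threshold (log2 fold change -0.34 ± 0.17, adjusted p = 0.139). Mtss1, a membrane-bending actin regulator, measured 102, 102, 105, 91.1 and 103 CPM in WT and 51.0, 52.9, 40.3, 43.9 and 49.4 CPM in DKO, and the groups did not overlap (log2 fold change -1.12 ± 0.10 (SE), adjusted p = 3.25e-05). Fam84b fell too (log2 fold change -1.38 ± 0.29 (SE), adjusted p = 0.00277). Trib1, a pseudokinase, passed the threshold (log2 fold change 1.47 ± 0.52 (SE), adjusted p = 0.0394), but its groups overlapped and DKO replicate 2 alone stood at 122 CPM. Without that library its log2 fold change was 0.58 and its adjusted p 0.0504.

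The largest falls were outside most of these groups. Myo10 (chr15:25622525-25813673), an unconventional myosin of filopodia, measured 50.0, 43.2, 54.3, 34.2 and 32.2 CPM in WT and 4.07, 1.06, 3.22, 2.70 and 2.28 CPM in DKO (log2 fold change -4.05 ± 0.30 (SE), adjusted p = 1.00e-05). Amigo2, a cell adhesion protein, fell from 86.5 ± 11.4 to 10.4 ± 6.17 CPM (log2 fold change -3.11 ± 0.54 (SE), adjusted p = 9.73e-04), and Acvrl1, a receptor of the TGF beta family, from 57.3 ± 9.86 to 8.35 ± 5.05 CPM (log2 fold change -2.83 ± 0.51 (SE), adjusted p = 0.00129). No DKO library reached the lowest WT library in any of the 3. In all, 77 members had every DKO library above every WT library and 67 had every DKO library below, which is 20.4 and 17.7%. The shares were 20.1% above and 14.1% below over all genes tested, and 18.7% and 16.1% over the genes with the same WT minimum.

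**Figure D5:**
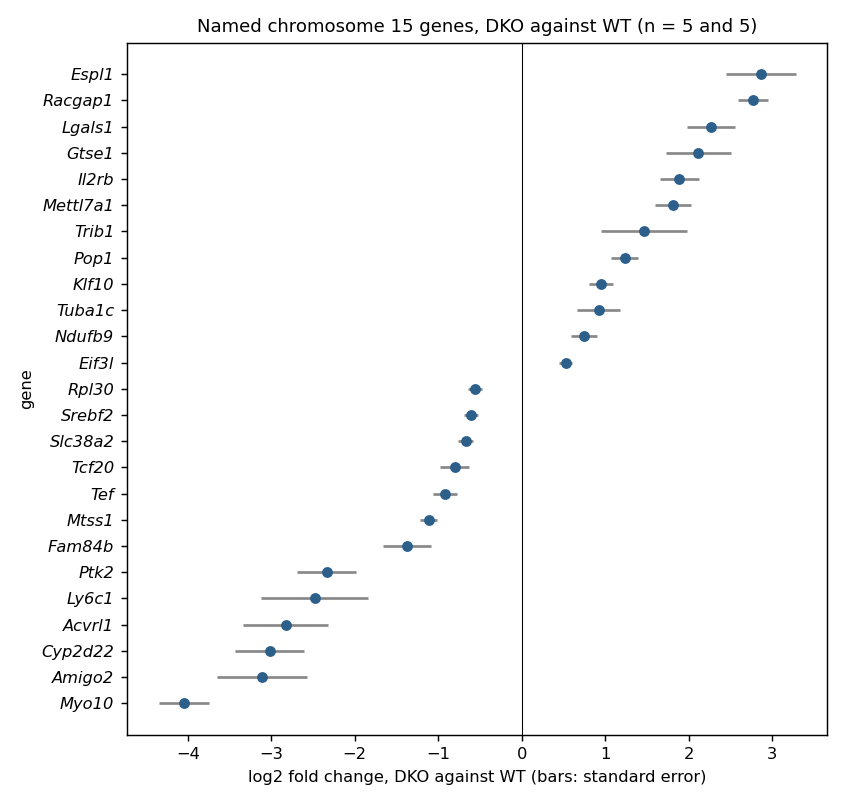
Log2 fold change of DKO against WT (x axis, bars are standard errors, n = 5 and 5) for the 25 named chromosome 15 genes (y axis) that passed the threshold. The values run from -4.05 for Myo10 to 2.87 for Espl1, with 12 genes above 0 and 13 below.

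TX1 and TX2 were also fitted against DKO, with the same control libraries in both. The libraries that the rule used are part of these comparisons, so the counts stand beside the background and nothing is read from them. In TX1 against DKO 65 of 378 members were higher and 22 lower (87, 23.0%), against 19.7% of 13954 genes tested (11.7% higher, 7.97% lower), and the median log2 fold change was 0.14 against 0.02. Of the genes with the same WT minimum on the other autosomes 21.9% were called (13.0% higher, 8.89% lower). The count of members rested on single libraries: it was 155, 51 and 37 without TX1 replicates 1, 2 and 3, 46 to 55 without DKO replicate 1, 3, 4 or 5, and 0 without both DKO libraries labelled young or with a replicate block. The shares of all genes called in these fits are not reported here, so these counts cannot be set against a background. In TX2 against DKO 120 of 377 members were higher and 86 lower (206, 54.6%), against 51.7% of 14034 genes (25.6% higher, 26.1% lower), and the median was 0.10 against -0.01. Of the genes with the same WT minimum 55.5% were called (26.3% higher, 29.2% lower). TX2 replicates 1 to 4 shared 1 dominant receptor and replicates 5 to 7 another, yet the fit took each library as an independent sample. Its p-values therefore do not measure the spread between clones. Kcnh3 was not tested in TX2 against DKO.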

How the data were processed

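Gene counts as deposited are whole reads per Ensembl identifier in STAR's layout, and the clonotype tables, also deposited, give the count of reads behind each receptor sequence. Per the submitters' processing notes, reads went through fastp 0.21.0 and STAR 2.7.5a, with DESeq2 and the genome builds mm10 and GRCm38 also listed; the counting annotation and the clonotype tool are not stated there. Counts made without regard to strand were used, since the 2 strand columns were nearly equal (median share of the larger 0.507), so reads of overlapping antisense genes cannot be told apart. Reads that map to several places are not in the gene counts, so genes with near-identical copies are uncertain.

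Reads in the summary lines made up 16.8 to 23.4% per library and were left out of totals. GENCODE M21 matched 55227 of 55487 identifiers. Members had a WT mean of at least 5 CPM, and log2(CPM + 0.5) was set against the WT mean (WT libraries against the other WT libraries) and centred on the autosomal median. A fold on that scale understates the change of low genes. No 2 libraries of a group agreed within sampling noise.

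Groups were compared in edgeR 4.0.16 (R 4.3.3; TMM, filterByExpr, robust quasi-likelihood test, each pair of groups fitted alone), and the chromosome medians of DKO and WT with an exact permutation test. The SE of a log2 fold change was derived from the test, as its absolute value divided by the square root of the F statistic. The edgeR fit was tested on simulated counts for DKO against WT. Alternatives included DESeq2 1.42.0, RLE size factors, an unfiltered fit, the strand column, sex, replicate number, other minimums, pseudocounts and centring, and each library left out. Members and gene lists were chosen with earlier results of these data known. Named genes are list members, the 5 largest and 5 smallest differences, genes next to the minimum, and in DKO against WT the 6 largest rises and 6 largest falls without overlap plus up to 3 called genes of each list; Ttc33, Copz1, H1f0, Fbxo4 and other genes outside this rule were chosen after their values were seen. A planned check of promoter sequence is void, since 55.3% of members had a promoter window where 80% were needed. Intervals and floors cover counting error only. Values of some list genes are not reported here.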

Additional observations from a re-analysis of the deposited data

Results flagged for a closer look

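Of 58 groups of 4 to 7 libraries examined, 10 held a library far from the others by Dixon's criterion, which chance alone meets in about 1 of 20 groups. WT replicate 5 was apart for the chromosome as a whole: its chromosome 15 median was -0.13 against 0.01 to 0.04 in the other WT libraries, and chromosome 15 held 4.58% of its reads against 4.91 to 4.98%. The same library was apart for Ptk2, at 9.65 CPM against 11.5 to 11.8 CPM, and for Fam84b, at 31.8 CPM against 17.1 to 21.2 CPM. WT replicate 4 was apart for Racgap1 (43.8 CPM against 25.2 to 29.3 CPM), Lgals1 (149.9 CPM against 98.2 to 106.3 CPM), Mettl7a1 (9.21 CPM against 5.80 to 6.58 CPM) and Mtss1 (91.1 CPM against 102 to 104.7 CPM). DKO replicate 2, the female-labelled DKO library with a dominant receptor of its own, was apart for Mettl7a1 (36.2 CPM against 20.9 to 22.6 CPM) and Trib1 (122 CPM against 15.3 to 29.99 CPM). The cause was not tested in any of these. Mettl7a1 and Racgap1 rose in DKO against WT with no overlap between groups, these libraries included.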

How the results depend on the processing

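The 4 libraries minus the other 7 gave 0.35 for the chromosome 15 median. It was 0.29 to 0.37 under the other choices and with each library left out (0.31 to 0.37), and in each of these the lowest of the 4 lay above the highest of the other 7. Without a WT minimum, where every gene with any read in the libraries used was kept, it was 0.0013. The difference between DKO and WT in the chromosome median was -0.000136, and its sign changed with settings that all left it within replicate spread: 0.00108 with a pseudocount of 0.1, 0.00396 with a trimmed mean, 0.00142 with male-labelled libraries alone and 0.0201 without the DKO libraries labelled young (exact permutation p of 0.976, 1, 0.984 and 0.643), and -0.00992 to 0.0127 with each library left out.

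In TX1 against DKO the count of 87 members called fell to 41 with male-labelled libraries alone and to 0 without the DKO libraries labelled young. With each library left out it ran from 37 to 155: 155 without TX1 replicate 1, 51 without TX1 replicate 2, 37 without TX1 replicate 3, and 55, 55, 47 and 46 without DKO replicates 1, 3, 4 and 5. Replicate numbers were not taken as pairing the samples, because same-numbered DKO and WT libraries correlated at 0.0619 to 0.418 and not all above 0.1, with the best match for number 1 alone. With a replicate block the count was 0 in TX1 against DKO, 171 in DKO against WT (171 without) and 172 in TX2 against DKO (206 without). The causes were not tested, and the shares of all genes called in these alternative fits are not reported here. DKO against WT and TX2 against DKO stayed within 1.5 times their counts under every alternative run. Of 450 values for the 25 genes named in DKO against WT, 438 kept direction and threshold and 12, of Trib1, Ly6c1 and Tuba1c, kept direction but missed the threshold. The 4 libraries come from 1 clone, so their spread is not a spread between clones, and copy number was not measured.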
